A study of Homo sapiens with 8 samples.

Results

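The ZNF genes of human chromosome 19 encode zinc finger proteins and lie in long clusters of related copies. Members were the genes named ZNF followed by a number, with a locus on chromosome 19 and a summed FPKM (fragments per kilobase of transcript, scaled to the mapped total of the library) of at least 1 on average over all libraries. They were thus chosen by their measured FPKM as well as by name and place, so levels are given as a description. Of 234 such symbols in the deposited tables, 196 were members, out of 13114 genes at that level. Another 37 lay below 1 FPKM, of which 2 were listed at 0 in every library, and ZNF587 had no usable transcript. Just inside the limit lay ZNF837 at 1.00, ZNF709 at 1.08 and ZNF446 at 1.09 FPKM, and just outside it ZNF44 at 0.949, ZNF534 at 0.773 and ZNF285 at 0.754 FPKM.

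All cells came from the established line H1, human embryonic stem cells, grown without feeder cells and under puromycin, and each carried a hairpin construct that doxycycline (dox) switches on. The 8 groups were shEXOSC3 with dox and shEXOSC3 without dox, and shNS with dox and shNS without dox, each on day 5 and on day 7. The shEXOSC3 hairpin targets EXOSC3, a core subunit of the RNA exosome, which degrades and trims many kinds of RNA, and shNS is a non-silencing hairpin. Each group was 1 library of total RNA, so single differences have no replicate check, and the labels do not say whether a line is 1 clone.

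Most proteins of this family pair an array of zinc fingers, which reads DNA sequence, with a KRAB domain near the start of the protein. The KRAB domain binds the corepressor TRIM28, which brings in the histone methyltransferase SETDB1 and heterochromatin proteins, and in pluripotent cells this machinery silences many transposable elements. The genes arose largely by tandem duplication, and neighbours are similar in sequence, so short reads can be divided between copies in ways the tables do not show. A scan of translated transcripts found a KRAB A box in 173 members and not in 23. The number of finger matches ran from 1 in ZNF428 to 32 in ZNF91, with a median of 12.

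Promoters are shown first because a short sequence near the start was more frequent in members than in other genes, a description with no test. A RefSeq window from 250 bases before to 50 bases after the start (GRCh38.p14) was found for 175 members, and 4 motifs were searched on both strands. The letters CCGGAAG, a core bound by ETS family factors, were in 80 of the 175 windows (45.7%), against 19.9% of 10117 genes tested with a window and 10.7% of all 27305 promoters. ZNF genes of other chromosomes held it in 66 of 161 windows (41%), and other genes of chromosome 19 in 19.5%. The median first base of the 91 matches lay 20 bases before the start. Below are the windows of ZNF121, the member with the highest level, which lacks the letters, and of the 3 members with a window that hold them at the highest levels, written 5′ to 3′ on the gene's strand. Capitals mark a match to CCGGAAG or its reverse complement, or in ZNF121 the reverse complement of AAGATGGCG, a YY1 core. The windows are chr19:9584455-9584754 on the minus strand for ZNF121, and on the plus strand chr19:57613992-57614291 for ZNF134, chr19:57279732-57280031 for ZNF460 and chr19:24086937-24087236 for ZNF254.
ZNF121: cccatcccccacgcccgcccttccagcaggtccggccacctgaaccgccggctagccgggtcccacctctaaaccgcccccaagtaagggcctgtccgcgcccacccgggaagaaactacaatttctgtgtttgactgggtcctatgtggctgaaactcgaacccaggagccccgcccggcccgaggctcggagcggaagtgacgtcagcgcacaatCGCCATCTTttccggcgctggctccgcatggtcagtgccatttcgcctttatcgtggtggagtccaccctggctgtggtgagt
ZNF134: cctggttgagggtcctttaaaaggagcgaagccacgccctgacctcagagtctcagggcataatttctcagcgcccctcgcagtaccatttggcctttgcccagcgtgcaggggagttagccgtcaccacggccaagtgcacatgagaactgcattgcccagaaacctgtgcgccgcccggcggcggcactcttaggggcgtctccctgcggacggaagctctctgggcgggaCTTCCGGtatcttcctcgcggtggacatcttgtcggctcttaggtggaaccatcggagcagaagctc
ZNF460: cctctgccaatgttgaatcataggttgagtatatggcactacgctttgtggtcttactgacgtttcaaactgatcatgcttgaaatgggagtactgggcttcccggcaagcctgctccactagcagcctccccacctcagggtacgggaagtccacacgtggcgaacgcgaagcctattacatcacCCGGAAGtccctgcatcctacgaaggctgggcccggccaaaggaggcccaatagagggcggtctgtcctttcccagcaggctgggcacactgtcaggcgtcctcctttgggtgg
ZNF254: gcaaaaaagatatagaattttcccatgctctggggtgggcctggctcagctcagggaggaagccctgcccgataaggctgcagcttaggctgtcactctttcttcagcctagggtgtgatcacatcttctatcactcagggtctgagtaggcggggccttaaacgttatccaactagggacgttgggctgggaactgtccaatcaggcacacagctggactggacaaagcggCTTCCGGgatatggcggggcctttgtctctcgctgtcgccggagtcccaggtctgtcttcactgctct
The YY1 letters were in 4% of member windows and in 4.18% of those of genes tested. The NRF1 core GCATGCGC was in 2.86% and 5.59%, and the ZNF143 core in 1.14% and 0.554%. The ETS letters were unevenly placed along the chromosome: by hg19 position of the gene, they were in 21.9% of member windows from 0 to 19 Mb, 63.6% from 19 to 25 Mb, 26.9% from 25 to 39 Mb, 31.6% from 39 to 51 Mb and 60.5% from 51 to 60 Mb. Members with the letters had a median level of 7.44 FPKM and those without had 6.48 FPKM. Levels differed by position too, with medians of 18.3 FPKM from 19 to 25 Mb, 6.88 from 51 to 60 Mb and 4.49 from 0 to 19 Mb. The part of position in the level difference was not tested. A match is a string of letters in a window and no measure of binding.

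EXOSC3 was examined as the check of the knockdown. In shEXOSC3 its main transcript was at 7.54 FPKM with dox and 24.5 FPKM without on day 5 (30.7%), and at 9.13 FPKM with dox and 25.2 FPKM without on day 7 (36.2%). The shNS values were 27.8 FPKM with dox and 26.9 FPKM without on day 5, and 27.4 FPKM with dox and 27.6 FPKM without on day 7. Summed over transcripts, as for every other gene here, EXOSC3 had 11.3 FPKM with dox and 25.2 FPKM without in shEXOSC3 on day 5 (44.96%), and 12.3 FPKM with dox and 25.2 FPKM without on day 7 (48.9%). The shNS sums with dox were 102% and 90.6% of those without. The dox log2 ratio in shEXOSC3 minus that in shNS, or adjusted difference, was -1.11 for the day 5 sum and -0.84 for the day 7 sum, which is short of a 2-fold difference. Total depth is unknown. The steps of low values put the dox library of shEXOSC3 at 1.01 times the depth of its partner on day 5 and at 0.92 times on day 7, and that of shNS at 1.59 and 1.34 times. Of 10 stem cell markers 9 were measured, with summed levels in shEXOSC3 of 1588 and 2062 FPKM with dox on days 5 and 7, against 1887 and 2624 FPKM without, and in shNS of 1664 and 2197 FPKM with dox, against 1828 and 2564 FPKM without. The median adjusted difference of the 9 was -0.18 on day 5 and -0.10 on day 7. On both days 4 (44.4%) lay below 0 and 1 (11.1%) above, beside 28.9% and 26% of all genes. Of 8 fibroblast markers 5 were measured, and DCN and LUM were listed at 0. Their sums in shEXOSC3 were 138 FPKM with dox and 100.3 FPKM without on day 5, and 227 and 209 FPKM on day 7; in shNS they were 108 FPKM with dox and 99.2 FPKM without on day 5, and 169 and 183 FPKM on day 7. The shEXOSC3 dox library had the highest sum of each day, most of it THY1. THY1 alone had between 74.1 and 197 FPKM in every library, untreated shNS included. The sums thus mostly follow 1 gene and are no measure of fibroblast content. The median adjusted difference of the 5 was 0.46 on day 5 and 0.00037 on day 7, with 3 of 5 above 0 on both days and COL1A1 at 1.25 on day 5. Of 7 neuroectoderm markers only TUBB3 was measured, with sums from 24.1 to 103 FPKM. TUBB3 had adjusted differences of 0.03 on day 5 and 0.53 on day 7. No mesoderm or endoderm marker of 8 reached 1 FPKM, with sums from 0.384 to 1.16 FPKM, and of 7 trophectoderm markers only KRT7 did, with CGA and CGB3 listed at 0. The part of these cell markers and depths in the values that follow was not tested, and in bulk RNA fewer cells of a type and less RNA per cell cannot be told apart.

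The median member level was 6.69 FPKM, with a lower quartile of 3.76, an upper quartile of 13.0 and a highest value of 160 FPKM; ZNF genes of other chromosomes had a median of 7.03, other genes of chromosome 19 of 8.23 and all genes of 10.1 FPKM. Summed over the 196 members, levels on day 5 were 1676 FPKM with dox and 1763 without in shEXOSC3, and 1671 with dox and 1707 without in shNS. On day 7 the sums were 2436 FPKM with dox and 2643 without in shEXOSC3, and 2397 with dox and 2476 without in shNS. The dox library held the lower sum in all 4 pairs, by a margin smaller than the distance between the days. As a share of all FPKM, members made up 0.249% with dox and 0.237% without in shEXOSC3 on day 5, and 0.215% and 0.224% in shNS; on day 7 the shares were 0.357% and 0.396% in shEXOSC3 and 0.350% and 0.366% in shNS. The dox share was the lower one in 3 of 4 pairs.

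**Figure D1:**
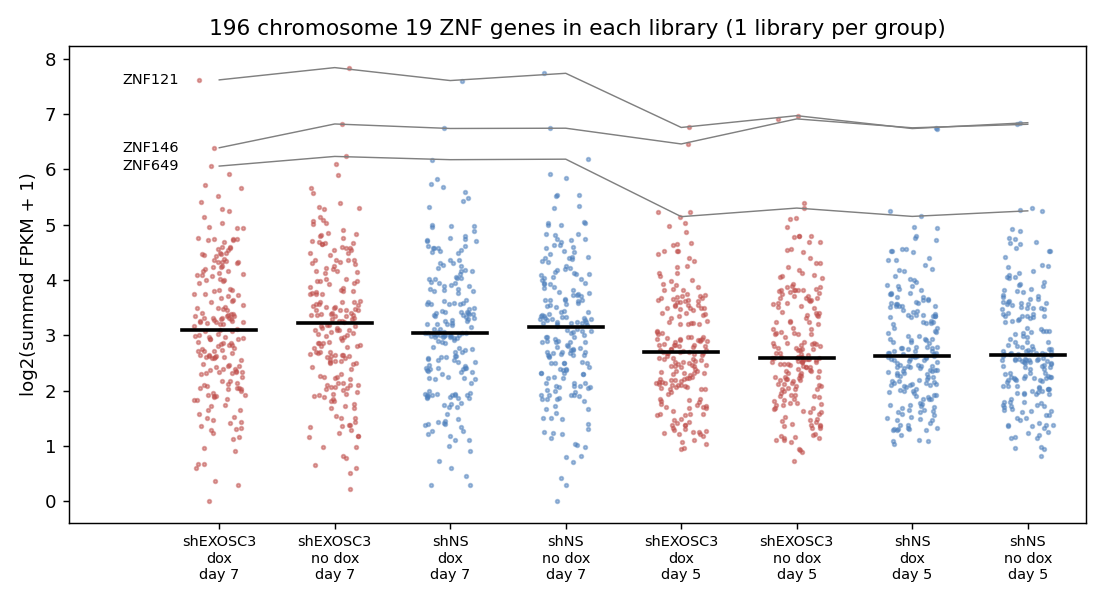
Log2(summed FPKM + 1) of the 196 members (points) in each of the 8 libraries, with the library median as a bar and ZNF121, ZNF146 and ZNF649 joined by lines as a guide to the eye. The median log2 level lay between 3.03 and 3.21 in the day 7 libraries and between 2.60 and 2.69 in the day 5 libraries.

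The member with the highest level was ZNF121, a zinc finger protein in which no KRAB A box was found (hg19, chromosome 19, 9676292 to 9695209). It had 107 FPKM with dox and 125 without in shEXOSC3 on day 5, and 106 with dox and 114 without in shNS; on day 7 it had 196 and 229 FPKM in shEXOSC3 and 194 and 213 in shNS. Each dox library was below its partner, with a log2 ratio of -0.21 in shEXOSC3, against -0.11 in shNS, on day 5, and of -0.22 in shEXOSC3, against -0.13 in shNS, on day 7. The adjusted log2 differences were thus -0.11 on day 5 and -0.09 on day 7. That quantity, used from here on, is the log2 ratio of dox over no dox in shEXOSC3 minus the same ratio in shNS, on log2(FPKM + 1), which understates differences of low genes. Next by level came ZNF146 at a mean of 104, ZNF649 at 53.5, ZNF90 at 42.3, ZNF714 at 41.3, ZNF253 at 38.9, ZNF134 at 35.5 and ZNF460 at 35.5 FPKM.

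Whether the knockdown altered the family was asked by the adjusted difference. With 1 library per group, a member was called by size where its log2 value reached 1 or -1, a 2-fold difference. On day 5, 1 member (0.51%) was called higher, where 1.51% of all genes were, and 0 lower, where 0.923% were. On day 7, 0 were called higher, where 2.2% of all genes were, and 2 (1.02%) lower, where 1.75% were. On both days in the same direction the counts were 0 and 0, beside 0.275% and 0.16% of all genes. The median adjusted difference of the members was -0.022 on day 5 and -0.043 on day 7, beside -0.00065 and -0.010 for all genes. Their middle 50% lay between -0.14 and 0.13 on day 5 and between -0.17 and 0.12 on day 7, a narrower band than that of all genes, from -0.20 to 0.19 and from -0.18 to 0.18. ZNF genes of other chromosomes had bands from -0.13 to 0.15 and from -0.19 to 0.16. Of those 187 genes, 1 (0.535%) was called higher and 0 lower on day 5, and the same on day 7. Low shares of calls were thus not particular to the members. At a log2 threshold of 0.5, 4 members were higher on day 5, beside 6.9% of all genes, and 1 lower, beside 4.31%; on day 7, 4 were higher, beside 7.31%, and 6 lower, beside 5.12%. On both days alike there were 0 and 0, beside 1.42% and 0.641%. On both days 66 members (33.7%) lay below 0 and 48 (24.5%) above, beside 28.9% and 26% of all genes.

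Beside all genes, the dox ratios of the members showed a small shift in each line alone. In shEXOSC3, 78 members (39.8%) lay below 0 on both days, beside 32.8% of all genes, and 50 (25.5%) above, beside 31.7%. In shNS, 62 members (31.6%) lay below 0 on both days, beside 24.6%, and 36 (18.4%) above, beside 26.3%. Other genes of chromosome 19 had nearly the same shares in shNS, 32.7% below and 18.3% above, so that shift was not particular to the members. In shEXOSC3 they had 27% below and 34% above. ZNF genes of other chromosomes had 23.5% below and 29.4% above in shNS, and 34.2% and 33.2% in shEXOSC3. The median ratios of the members were -0.0024 on day 5 and -0.087 on day 7 in shEXOSC3, and -0.0046 and -0.048 in shNS. Below 0 in every table lay 35 members (17.9%), beside 12.4% of all genes, and above 0 in every table lay 13 (6.63%), beside 12.7%. By the size rule, 1 member, ZNF28, was higher with dox in shEXOSC3 on day 5, where 1.33% of all genes were, and 0 lower, where 0.717% were; on day 7 there were 0 of each, beside 1.88% and 1.04%. In shNS no member was called on either day (0 higher, 0 lower), where the shares of all genes on day 5 were 0.717% (higher) and 0.602% (lower), with 1.2% and 0.846% the day 7 shares.

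**Figure D2:**
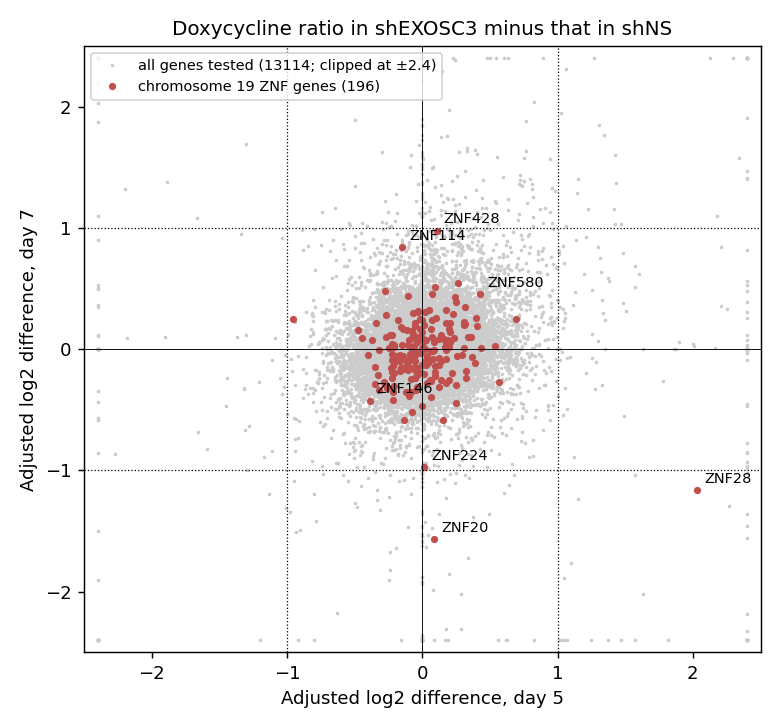
Adjusted log2 difference on day 5 (x) and day 7 (y) for the 196 members (red) and all 13114 genes tested (grey), with dotted lines at the size rule of 1. The members crowd around 0, and ZNF28 and ZNF20 are the only members past a line.

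The day-averaged difference was tested with limma across all genes, with the 2 days of a line as its observations. The p-values therefore measure a difference against the spread between time points, which are no replicates. With Benjamini-Hochberg adjustment 0 members passed at 0.05, and 0 of all 13114 genes did; EXOSC3 itself had an adjusted p of 0.747 by limma. At an unadjusted p under 0.05 there were 2 members (1.02%) higher, beside 3.12% of all genes, and 4 (2.04%) lower, beside 2.75%. The 2 were ZNF577 and ZNF581, and the 4 were ZNF146, ZNF85, ZNF486 and ZNF675. The authors' own tests, with 1 library per group, covered 318 member transcripts in shEXOSC3 on day 5 and 318 on day 7. In shNS they covered 343 on day 5 and 305 on day 7. The share of all transcripts past their threshold is not given here, so the count that follows has no background. In the authors' deposited tables, 0 member transcripts had a q under 0.05, and the smallest q was 0.765 for shEXOSC3 on day 5, 0.569 for shEXOSC3 on day 7, 0.405 for shNS on day 5 and 0.417 for shNS on day 7.

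The lowest mean adjusted difference over both days, among members on the same side of 0 on both, was that of ZNF146, a protein made almost wholly of zinc fingers (hg19 locus, chromosome 19, 36672962 to 36729675, shared with ZNF565). In shEXOSC3 it had 87.1 FPKM with dox and 120 without on day 5, and 83.0 with dox and 112 without on day 7. In shNS it had 107 with dox and 112 without on day 5, and 106 FPKM in both libraries of day 7. Both shEXOSC3 dox libraries lay below all other 6 libraries. The adjusted differences were -0.39 and -0.43, and limma gave a mean of -0.41 (SE 0.112), with an adjusted p of 0.747. By its highest transcript alone ZNF146 turned direction on day 7, to 0.52, with -0.46 on day 5. ZNF486 had 10.6 FPKM with dox and 12.9 without on day 5 in shEXOSC3, against 11.6 and 12.1 in shNS, and on day 7 it had 16.3 and 21.3 in shEXOSC3 and 18.8 and 18.1 in shNS. Its shEXOSC3 dox library was the lowest of each day, with adjusted differences of -0.21 and -0.42. ZNF85 stood at -0.35 and -0.29, ZNF627 at -0.32 and -0.34, ZNF433 at -0.13 and -0.58, ZNF566 at -0.07 and -0.52, ZNF548 at -0.26 and -0.32 and ZNF875 at -0.21 and -0.35. By the highest transcript ZNF85 turned to 1.89 and 0.37, and ZNF566 had 0.00019 on day 5. With dox libraries compared across tables, ZNF85 had 0.14 and ZNF875 0.044 on day 5.

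At the other end stood ZNF428, a short protein with 1 finger match (hg19 locus 44111376 to 44124014, shared with SRRM5). In shEXOSC3 it had 14.8 FPKM with dox and 12.05 without on day 5, and 5.77 with dox and 2.78 without on day 7. In shNS it had 9.89 with dox and 8.66 without on day 5, and 4.17 with dox and 4.69 without on day 7. The difference lay in the day 7 pair, with 0.10 on day 5 and 0.98 on day 7. ZNF580 had 3.30 FPKM with dox and 2.96 without on day 5 in shEXOSC3, against 1.48 and 2.07 in shNS, and 1.46 and 1.23 on day 7, against 1.27 and 1.82 in shNS. Its adjusted differences of 0.43 and 0.46 thus came more from lower dox values in shNS than from higher ones in shEXOSC3. ZNF345 stood at 0.69 and 0.25, ZNF792 at 0.26 and 0.55, ZNF577 at 0.24 and 0.43, ZNF135 at 0.31 and 0.35, ZNF573 at 0.39 and 0.25, and ZNF581 at 0.25 and 0.39. By the highest transcript ZNF345 had 0.12 and -0.36, and ZNF577 had -0.063 on day 5 and 0.55 on day 7.

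**Figure D3:**
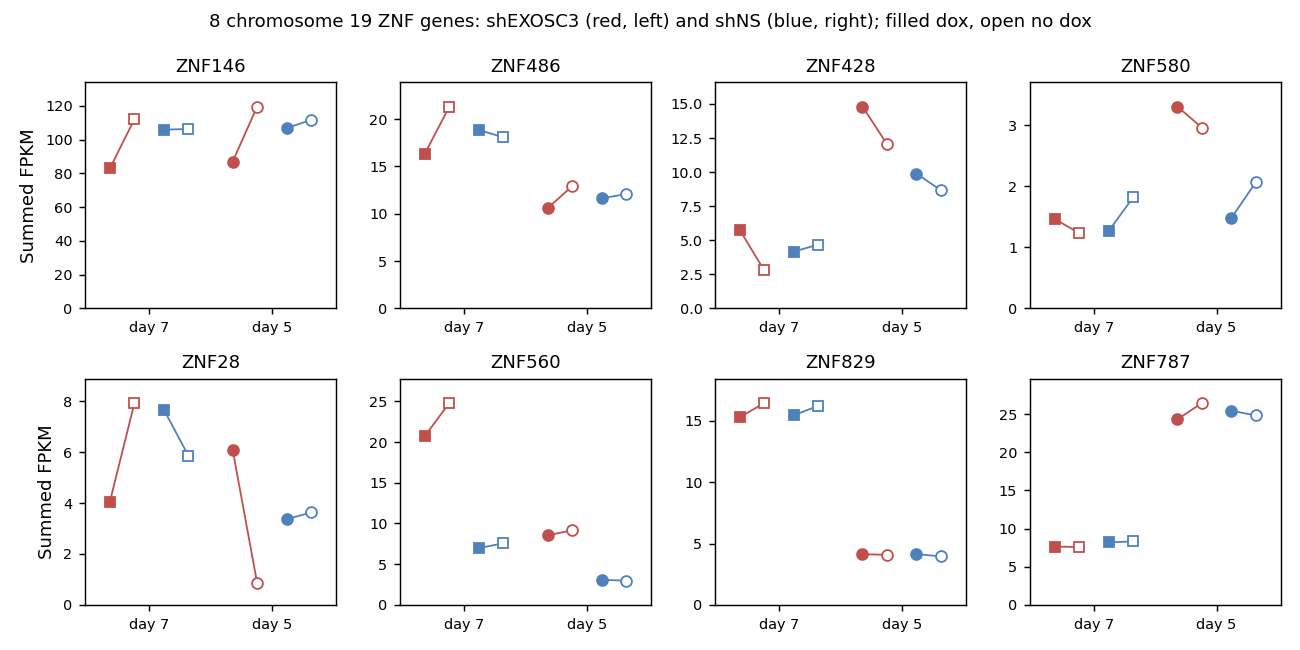
Summed FPKM of 8 members in each library, day 7 left and day 5 right, shEXOSC3 in red and shNS in blue, with filled marks for dox and open marks for no dox; a line joins the pair of 1 table. ZNF146 is lowest in both shEXOSC3 dox libraries, ZNF28 reverses between days, ZNF560 separates the lines, and ZNF829 and ZNF787 separate the days.

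The members past the size rule were ZNF28 and ZNF20. ZNF28 had 6.10 FPKM with dox and 0.841 without in shEXOSC3 on day 5, against 3.37 and 3.63 in shNS, and 4.06 with dox and 7.93 without on day 7, against 7.67 and 5.85 in shNS. Its adjusted difference was 2.03 on day 5 and -1.16 on day 7, so it passed in opposite directions, as 0.45% of all genes did. The day 5 value rests on 1 library, shEXOSC3 without dox. ZNF20 was listed at 0 FPKM with dox and at 0.581 without in shEXOSC3 on day 7, against 0.876 and 0 in shNS, which gave -1.57; on day 5 it had 5.01 and 5.06 FPKM, against 5.31 and 5.75, and 0.09. Its locus is shared with ZNF625 and the readthrough ZNF625-ZNF20.

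Members with a known role were looked up in a list of 20, of which 16 were members and ZNF296, ZNF208, ZNF257 and ZNF534 lay below 1 FPKM. None was past the size rule; 2 (12.5%) lay above 0 and 5 (31.2%) below on both days, beside 26% and 28.9% of all genes, and the medians were -0.055 and -0.13. With a pseudocount of 0.1 FPKM, ZNF114 had 1.04 and ZNF224 -1.17 on day 7, both past the rule. ZNF91, a repressor of SVA elements, stood at -0.02 and 0.25, and ZNF93, which represses a set of LINE elements, at 0.17 and 0.03. ZNF274, which brings SETDB1 to the ends of ZNF genes, stood at -0.08 and 0.09. ZNF473, a part of histone RNA processing, stood at -0.10 and -0.15. ZNF420, an inhibitor of p53, stood at 0.15 and -0.59. The widest spans were those of ZNF224 at 0.01 and -0.97 and ZNF114 at -0.15 and 0.84; in ZNF224 the day 7 value came from 3.14 FPKM with dox and 5.22 without in shEXOSC3, against 6.38 and 4.64 in shNS. ZNF43, ZNF304, ZNF331, ZNF350, ZNF528, ZNF260, ZNF649 and ZNF175 lay between -0.22 and 0.39. By the highest transcript, ZNF43 turned to 0.77 and 0.083, ZNF331 to 0.34 on day 7, ZNF91 to 0.20 and ZNF274 to 0.17 on day 5.

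A list of KRAB corepressors and heterochromatin partners, DNA methyltransferases and histone chaperones among them, was measured in full, 26 of 26. On both days 3 (11.5%) lay above 0 and 8 (30.8%) below, beside 26% and 28.9% of all genes. On both days 0 were past the size rule, beside 0.275% of all genes higher and 0.16% lower, and 0 passed by limma after adjustment; at an unadjusted p under 0.05 there were CBX1, a heterochromatin protein, at a mean of -0.32 and MORC3 at -0.40. The list's medians were 0.070 and -0.17. The highest means were those of the histone chaperone DAXX at 0.18, the histone methyltransferase EHMT1 at 0.18 and SUV39H2 at 0.12, and the third lowest that of the DNA methyltransferase DNMT3B at -0.31. TRIM28 itself had 260 FPKM with dox and 240 without in shEXOSC3 on day 5, against 252 and 244 in shNS, and 59.7 and 65.4 on day 7, against 61.3 and 66.1. Its adjusted differences were 0.07 and -0.02. SETDB1 had 21.4 and 22.8 FPKM on day 5, against 21.4 and 22.1, and 23.4 and 21.9 on day 7, against 23.3 and 21.9.

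Along the chromosome, the interval from 19 to 25 Mb held the highest median level. Its 24 members, all with a KRAB A box, had a median of 18.3 FPKM, against 4.49 from 0 to 19 Mb, 5.55 from 25 to 39 Mb, 4.70 from 39 to 51 Mb and 6.88 from 51 to 60 Mb. Its median adjusted difference was -0.10 on both days, with 15 of 24 (62.5%) below 0 on both days and 1 (4.17%) above, beside 28.9% and 26% of all genes. The interval's median GC content was 38.2%, and all 1710 genes tested with 30 to 40% GC had median adjusted differences of -0.088 and -0.11; the part of GC content in the interval's value was not tested. In shEXOSC3 the median dox ratios of the interval were -0.13 and -0.11, and in shNS -0.033 and -0.017. Members with a KRAB A box had median adjusted differences of -0.036 and -0.045, and those without one of 0.069 and 0.026. Across the 196 members, the number of fingers and the adjusted difference had a Spearman rho of 0.060 on day 5 and -0.055 on day 7, and GC content had 0.13 and 0.19; these describe genes, which share libraries and sequence.

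Sums over transcripts and single transcripts gave different pictures in 95 members with several transcripts, where the highest one held a median of 68.3% of the sum. By its highest transcript, 22 of 190 members were past 1 on a day, of which 21 had several transcripts, against 2 by the sum, with 1 member in common. The member share by the highest transcript was 11.6%, where 15.8% of all genes passed by that rule, and by the sum 5.51% of all genes did. Among those with several transcripts, 23.6% of 89 members and 22.3% of 6181 genes passed. ZNF180 had -1.20 and -4.19 by that transcript and 0.07 and 0.10 by the sum. ZNF610 had -1.41 and -1.10, against -0.40 and -0.05, and ZNF611 -1.47 and -1.03, against -0.06 and -0.24.

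Levels were also set side by side between the days, whose tables were normalized separately, so what follows is a description with no test. In the 4 pairs of line and treatment, the median log2 ratio of day 7 over day 5 was 0.40 and 0.50 in shEXOSC3 with and without dox, and 0.40 and 0.44 in shNS, where all genes had between -0.095 and -0.07. Above 0 in 4 of 4 pairs lay 133 members (67.9%), beside 33.6% of all genes, and below 0 lay 28 (14.3%), beside 44.3%. ZNF genes of other chromosomes leaned the same way, with 54.5% above and 27.3% below 0 in 4 of 4 pairs and a median of 0.26, against 0.43 for the members. ZNF829 (hg19 locus 37288452 to 37407193, shared with ZNF345 and ZNF790) had 15.3, 16.5, 15.5 and 16.2 FPKM on day 7 and 4.13, 4.08, 4.13 and 3.95 on day 5, in shEXOSC3 with and without dox and shNS with and without dox. ZNF787 had 7.64, 7.58, 8.18 and 8.31 FPKM on day 7 and 24.3, 26.4, 25.4 and 24.8 on day 5, in the same order. Both genes are among the members at least 2-fold apart between the days in 4 of 4 pairs, which are counted next. At least 2-fold in 4 of 4 pairs were 13 members (6.63%) higher, beside 4.36% of all genes, among them ZNF90, ZNF253, ZNF675 and ZNF577, and 5 (2.55%) lower, beside 8.73%, which were ZNF20, ZNF579, ZNF581, ZNF784 and ZNF787.

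The day difference moved with base composition. Median transcript GC content was 42.5% in members, from 33.9% to 70.5%, 46.7% in ZNF genes of other chromosomes, 60.8% in other genes of chromosome 19 and 48.6% in all genes. Across members, GC content and the mean day ratio had a Pearson r of -0.66 and a Spearman rho of -0.44 (n = 196 genes), and across all genes of -0.39 and -0.52 (n = 12953). Within 30 to 40% GC the members' median ratio was 0.63 and that of all genes 0.32; within 40 to 45% it was 0.49 and 0.20, within 45 to 50% 0.36 and 0.024, and within 60 to 80%, which held 15 members, -1.02 and -0.97. Members without a KRAB A box had a median GC content of 62.1% and a ratio of -0.53, and those with one had 42.3% and 0.47. The part of GC content in the day difference was not tested.

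**Figure D4:**
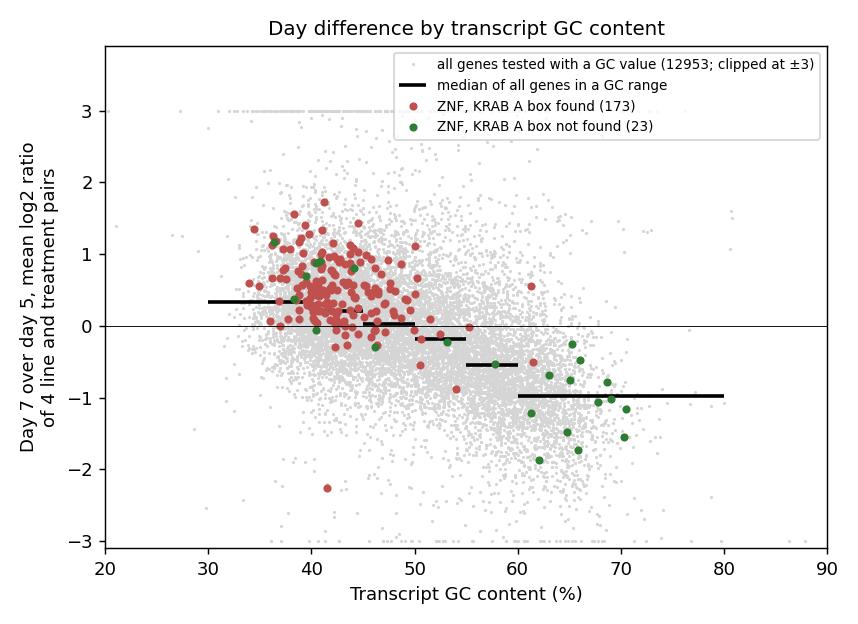
Mean log2 ratio of day 7 over day 5 against transcript GC content for members with a KRAB A box (red, 173), members without (green, 23) and all genes tested (grey), with the median of all genes per GC range as a bar. Of the 15 members from 60 to 80% GC, 14 lie below 0, and most members at low GC lie above 0 and above the bars.

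Between the lines, ZNF560 was the only member at least 2-fold apart in 4 of 4 pairs, where 0.0458% of all genes were higher in shEXOSC3 in that way; lines lie in separate tables, so this too has no test. It had 8.55 FPKM with dox and 9.16 without in shEXOSC3 on day 5, against 3.08 and 2.98 in shNS, and 20.7 and 24.8 FPKM on day 7, against 6.98 and 7.57 in shNS. The log2 differences were 1.23, 1.35, 1.45 and 1.59 with and without dox on day 5 and day 7. The lines differed with and without dox alike, while its adjusted differences were -0.13 and -0.14.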

How the data were processed

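RNA of 8 libraries, 1 per group, was sequenced after rRNA depletion, per the labels' protocols; CASAVA 1.8, TopHat and Cufflinks were used on hg19, per the submitters' processing notes. The deposited values are FPKM per RefSeq transcript, with the authors' p-value and q-value, in 4 tables of 49235 transcripts; counting by strand and normalization options stay unstated in the sources used here. Accessions were matched to symbols through a RefSeq table (48143 matched, 1092 not). The 164 transcripts that failed in any table were left out and the rest summed per gene. Ratios used log2(FPKM + 1) within a table. For the day-averaged difference, limma 3.58.1 (R 4.3.3) was run over all genes on the 4 ratios, with a trend and 2 residual degrees of freedom. It was checked on simulated data with independent normal noise whose spread followed level alone. That check does not show its power in these data. GC content, fingers and KRAB A boxes were read from GENCODE 29 transcripts, translated here, in place of RefSeq proteins; the KRAB pattern matched 412 of 19663 coding genes. Loci are those of the deposited tables and can span several genes. Members and lists were chosen with earlier results of these data known. Named genes were the known-role list, the 8 highest by level, the 8 highest and 8 lowest by adjusted difference with 1 sign on both days, those at the limit and those past a size rule; others were chosen after their values were seen. Alternatives were other pseudocounts, minimums, transcripts, thresholds and centring.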

Additional observations from a re-analysis of the deposited data

Results flagged for a closer look

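In 7 of 40 named members (17.5%) the dox ratio lay on one side of 0 on both days in shEXOSC3 and on the other side on both days in shNS. All 7 come from the 8 highest and 8 lowest members picked by the same difference, so the choice favours the pattern; it was found in 19 of all 196 members (9.69%) and in 9.47% of all genes tested. The mean adjusted log2 difference was 0.44 in ZNF580, 0.40 in ZNF792, 0.33 in ZNF577, 0.32 in ZNF573, -0.32 in ZNF85, -0.30 in ZNF566 and -0.29 in ZNF548. By the highest transcript the adjusted difference of ZNF577 was -0.063 on day 5, and that of ZNF85 was 1.89 and 0.37. By limma the unadjusted p ran from 0.0316 in ZNF85 to 0.127 in ZNF566, and the adjusted p was 0.747 in each, so the difference between lines was not past the threshold in any of them.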

How the results depend on the processing

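No analysis paired by replicate number was possible, because each group held 1 library. The dox and no dox libraries of a table enter the adjusted difference and limma as 1 ratio. Day was not a term of the limma fit, so a shift between days that both lines share counts in its spread. Of the summary values under the alternatives, 79 stayed and 15 moved, and of single genes 527 stayed and 111 moved. Log2 values were counted by whether they shifted by 0.1. Summary values that are counts of members were not judged by that measure. The 6 members at an unadjusted limma p under 0.05 counted as stayed at 8, and as moved at 3 or 17. Among the single-gene values, moved or not, 29 values of 23 among 40 named members turned sign. By the highest transcript 12 did, ZNF146 on day 7 and ZNF577 on day 5 among them, and 17 with dox libraries compared across tables. Some of these are small shifts around 0, such as ZNF93 on day 7, from 0.027 to -0.022 across tables. Members past the size rule numbered 1 on day 5 and 2 on day 7. These became 2 and 5 with a pseudocount of 0.1 FPKM, 0 and 0 with 5 FPKM, 12 and 15 by the highest transcript, and 5 and 10 at a log2 threshold of 0.5; a minimum of 3 FPKM left 1 on day 7. Past the rule on both days in the same direction were 0 members, 3 by the highest transcript and 1 (ZNF560) with dox libraries compared across tables. Members at an unadjusted limma p under 0.05 numbered 6, with 3 by the highest transcript, 17 with no minimum, 8 with a minimum of 3 FPKM and 3 without the trend. A changed minimum also changes the set of members. Shares of all genes are not given under the other pseudocounts, the other minimums, the limma alternatives and dox libraries compared across tables. By the highest transcript a share is given above only for passing on either day, and not for each day or for both days. Counts without such a share have no background. The median day 7 over day 5 ratio was 0.43, and 0.254 with a pseudocount of 5 FPKM; this comparison was added after the data were seen. The cause of these shifts was not tested. Depth is unknown, so counting error of low members cannot be given.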
